A study of Mus musculus with 18 samples.

Results

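Whey and other secreted milk proteins were followed through 9 genes, Wap, Lalba, Glycam1, Trf, Ltf, Lao1, Mfge8, Spp1 and Lcn2. They were taken by gene symbol from the 46257 genes of the deposited table, and each symbol was found on 1 row. All 9 passed the filter on low values, a signal of at least 10 in at least 2 libraries, as did 22315 genes in all. The genes were followed in RNA from ER- luminal, ER+ luminal and basal cells that were sorted from mouse mammary glands at puberty, in adults and at mid pregnancy. Each of the 9 groups held 2 libraries. ER+ and ER- refer to the estrogen receptor. Every mouse, in every group, carried the genotype ERrtTA/TetOCre/rosaYFP, that is, a tetracycline-controlled Cre and a yellow fluorescent reporter. The labels leave out the sorting gates, the ages, any doxycycline given and the day of pregnancy, and do not state that the replicates were separate animals. The p-values therefore measure the spread between these libraries, which may be technical. The basal samples of puberty and pregnancy are titled BC but carry the cell type label BC luminal cells, and they are called basal here because of their titles. The sum of 8 basal markers was 146107 to 287655 in the 6 basal libraries and 849 to 34886 in the 12 luminal ones.

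Milk is made by luminal cells of the alveoli, which form during pregnancy and secrete fully only after birth. Whey is the soluble part of milk that remains when casein has been taken out. Whey acidic protein (Wap) is an abundant rodent whey protein, and alpha-lactalbumin (Lalba) is the partner of B4galt1 in lactose synthesis. Glycam1 is a mucin-like glycoprotein of milk that high endothelial venules also make, as a ligand of L-selectin. Lao1 is an L-amino acid oxidase of mouse milk, whose reaction yields hydrogen peroxide. Transferrin (Trf) and lactoferrin (Ltf) bind iron, and lipocalin 2 (Lcn2) binds the siderophores with which bacteria take up iron. Neutrophil granules also hold Ltf and Lcn2. Mfge8 binds phosphatidylserine and integrins and coats the milk fat globule, and osteopontin (Spp1) is a secreted ligand of integrins and Cd44. Prolactin, acting through Stat5, and the ETS factor Elf5 are known drivers of many milk protein genes.

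The promoter sequences of 4 of the genes are shown because they stand for the patterns described below: Wap and Glycam1, which were highest in pregnancy, and Ltf and Mfge8, which were highest in ER- luminal cells at puberty. Each run covers up to 250 bases before the start of the gene, 5′ to 3′ on the strand of the gene, from RefSeq on GRCm38.p6. Capitals mark matches on either strand to TTCNNNGAA, the letters of a Stat5-type site, or to AGGAAG, the letters of an ETS-type site, which reads CTTCCT on the other strand.
Wap, chr11:6638650-6638899, minus strand: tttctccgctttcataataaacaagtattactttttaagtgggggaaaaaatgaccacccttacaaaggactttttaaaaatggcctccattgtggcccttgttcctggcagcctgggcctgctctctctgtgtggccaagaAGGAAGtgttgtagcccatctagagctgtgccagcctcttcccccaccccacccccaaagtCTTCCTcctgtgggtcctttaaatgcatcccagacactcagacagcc
Glycam1, chr15:103565082-103565331, minus strand: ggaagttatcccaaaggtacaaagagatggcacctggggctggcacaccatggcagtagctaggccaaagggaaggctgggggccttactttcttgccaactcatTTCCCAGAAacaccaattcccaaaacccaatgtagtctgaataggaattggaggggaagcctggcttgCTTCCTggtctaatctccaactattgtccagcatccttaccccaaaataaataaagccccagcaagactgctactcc
Ltf, chr9:111019042-111019270, plus strand: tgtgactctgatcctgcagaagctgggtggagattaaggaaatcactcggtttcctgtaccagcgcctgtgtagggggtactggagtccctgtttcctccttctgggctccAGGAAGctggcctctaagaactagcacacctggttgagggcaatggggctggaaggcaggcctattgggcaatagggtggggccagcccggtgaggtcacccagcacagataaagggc
Mfge8, chr7:79149061-79149310, minus strand: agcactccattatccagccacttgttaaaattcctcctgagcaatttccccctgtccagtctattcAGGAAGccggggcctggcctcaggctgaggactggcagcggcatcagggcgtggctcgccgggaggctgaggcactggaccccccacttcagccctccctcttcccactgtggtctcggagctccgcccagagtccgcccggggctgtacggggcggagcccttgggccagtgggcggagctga
RefSeq promoters were matched for 8 of the 9 genes, all but Trf. TTCNNNGAA was found in 1 of the 8, Glycam1, as TTCCCAGAA from 145 to 137 bases before the start, and 7.02% of 32851 promoters of that length held it. AGGAAG was found in 7 of the 8 and in 29.5% of all promoters. The Wap window held it at 108 to 103 and, on the other strand, at 47 to 42 bases before the start. The 7 of 8 is a count of genes, with more than 1 window for Spp1, whereas the share of all promoters is by window. Of the 250 bases, 250 lay in annotated exons of the gene for Lao1 and 197 for Lcn2. These matches describe letters in a window and were not tested for binding.

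Values are read counts that were scaled to a common total of 20000000 per library, called signal here, and are given as replicate 1 and replicate 2. One read was worth 1.75 to 8.25 of signal, since depth ran from 2406221 to 11292227 reads in genes. The 4 adult luminal libraries were set apart, with the largest value of 1 read and with 4.73% to 7.07% mitochondrial signal against 0.615% to 3.27% in the other 14. The 0.615% was pregnancy ER- luminal replicate 2, and the next lowest library had 1.88%. That replicate also had the fewest genes above 0 of the pregnancy libraries, 20444. Log2 fold changes are of signal + 1, with their standard error (SE), from 1 limma model of all 18 libraries, and a gene is said to have risen or fallen at a Benjamini-Hochberg adjusted p under 0.05. In bulk RNA, more or fewer cells of a type and more or less RNA per cell cannot be told apart.

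Wap was at or close to 0 in luminal cells before pregnancy and rose in every population during it. The ER- luminal libraries had a signal of 7 and 15 at puberty, 14 and 13 in adults and 7261 and 3556 in pregnancy. Its signal in ER+ luminal cells was 0 in all 4 libraries of puberty and adulthood and 2504 and 3830 in pregnancy. The basal libraries had 0 and 3 at puberty, 134 and 5 in adults and 2289 and 1242 in pregnancy. Every pregnancy library lay above every other library, and the adult basal pair was the widest before pregnancy. Wap (chr11:6635482-6638637, minus strand, 3 exon blocks) rose from adult to pregnancy by 8.45 ± 1.06 (SE) in ER- luminal cells on the log2 scale (adjusted p = 0.000255), a ratio of means of 401. That ratio rests on 4 reads in adult ER- luminal cells. Against ER+ luminal cells without a read, the mean of 3167 ± 938 (SD, n = 2) was at least 264-fold higher than in adults and at least 962-fold higher than at puberty, at a floor of 3 reads over the group. Adjusted p was 6.56e-06 and 1.24e-05. In basal cells the rise over adults was 5.89 ± 1.06 (adjusted p = 0.0054), which was 0.0661 without pregnancy basal replicate 1. Puberty basal cells held 1 read of Wap, against which the ratio of read rates in pregnancy was 1716, with an exact 95% interval of 307 to 67843 that covers counting error only (adjusted p = 0.000425).

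Lao1 followed Wap closely. Its signal in ER- luminal cells was 48 and 55 at puberty, 7 and 7 in adults and 3769 and 5494 in pregnancy. ER+ luminal cells held 2 and 0 at puberty, 0 and 0 in adults and 1201 and 4705 in pregnancy. Basal cells held 0 and 9 at puberty, 478 and 24 in adults and 975 and 1395 in pregnancy. The pregnancy libraries again lay above all others, with ER+ replicate 1 and both basal libraries lowest among them. Lao1 (chr4:118961578-118968912, plus strand, 6 exon blocks) rose over puberty by 6.44 ± 1.25 in ER- luminal cells (adjusted p = 0.00566, ratio of means 89.9) and by 8.53 ± 1.25 in basal cells (adjusted p = 0.00529, ratio 263). The ratio of 263 rests on 4 reads in puberty basal cells. The basal call had an adjusted p of 0.0541 without pregnancy basal replicate 2. Adult ER- cells held 2 reads in all, and the ratio of read rates to them was 702 (exact 95% interval 194 to 5799, adjusted p = 0.000949). Adult ER+ cells held none, so that pregnancy was at least 246-fold higher (adjusted p = 8.76e-05). The rise over adults in basal cells did not pass (adjusted p = 0.115).

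Glycam1 had the highest mean pregnancy signal of the 9 genes in both luminal populations, with uneven replicates. The ER- luminal signal was 353 and 4 at puberty, 0 and 0 in adults and 39408 and 8993 in pregnancy. Among ER+ luminal cells it was 1617 and 0 at puberty, 0 and 0 in adults and 15529 and 40605 in pregnancy. Basal cells had 495 and 5 at puberty, 1045 and 99 in adults and 12751 and 15500 in pregnancy. All 6 pregnancy libraries lay above the other 12, and at puberty replicate 1 was high and replicate 2 low in each population. Glycam1 (chr15:103562759-103565081, minus strand, 2 exon blocks) was at least 2471-fold higher in pregnancy than in adult ER- luminal cells (adjusted p = 0.0224) and at least 2341-fold higher than in adult ER+ luminal cells (adjusted p = 0.0148). Each of these calls was lost when any 1 of the compared libraries was left out, with adjusted p of 0.0572 to 0.108 and 0.0515 to 0.0901, and by edgeR on the recovered reads (0.0985 and 0.0992). Against puberty the fitted rise was 8.81 ± 3.33 in ER- luminal, 9.29 ± 3.33 in ER+ luminal and 8.01 ± 3.33 in basal cells, and none passed (adjusted p = 0.111, 0.106 and 0.326). Without puberty ER+ replicate 1 the ER+ rise passed, with an adjusted p of 0.0109.

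Markers of blood vessels differed between the same puberty luminal replicates. The 6 endothelial markers summed to 9360 and 1925 in puberty ER- and to 10920 and 1249 in puberty ER+ luminal cells, but to 8443 and 13009 in puberty basal cells. The 5 markers of high endothelial venules summed to 1301 and 212, to 2085 and 107 and to 934 and 1159 in the same order. Their sum was highest, 5651 and 5823, in the adult basal libraries, where Glycam1 was 1045 and 99. Selp and Ackr1 made up most of these sums, while Chst4, an enzyme that sulphates L-selectin ligands, was 3 and 0, 25 and 0 and 0 and 0 in the puberty groups. The 8 basal markers also differed in this way, with 11844 and 3053 in puberty ER- and 10420 and 849 in puberty ER+ luminal cells, as did the 6 adipocyte markers, with 10614 and 2020 and 7840 and 1203. The 6 fibroblast markers ran the other way, with 14663 and 64435 and 18096 and 60308. The part of such cells in the Glycam1 values was not tested.

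**Figure D1:**
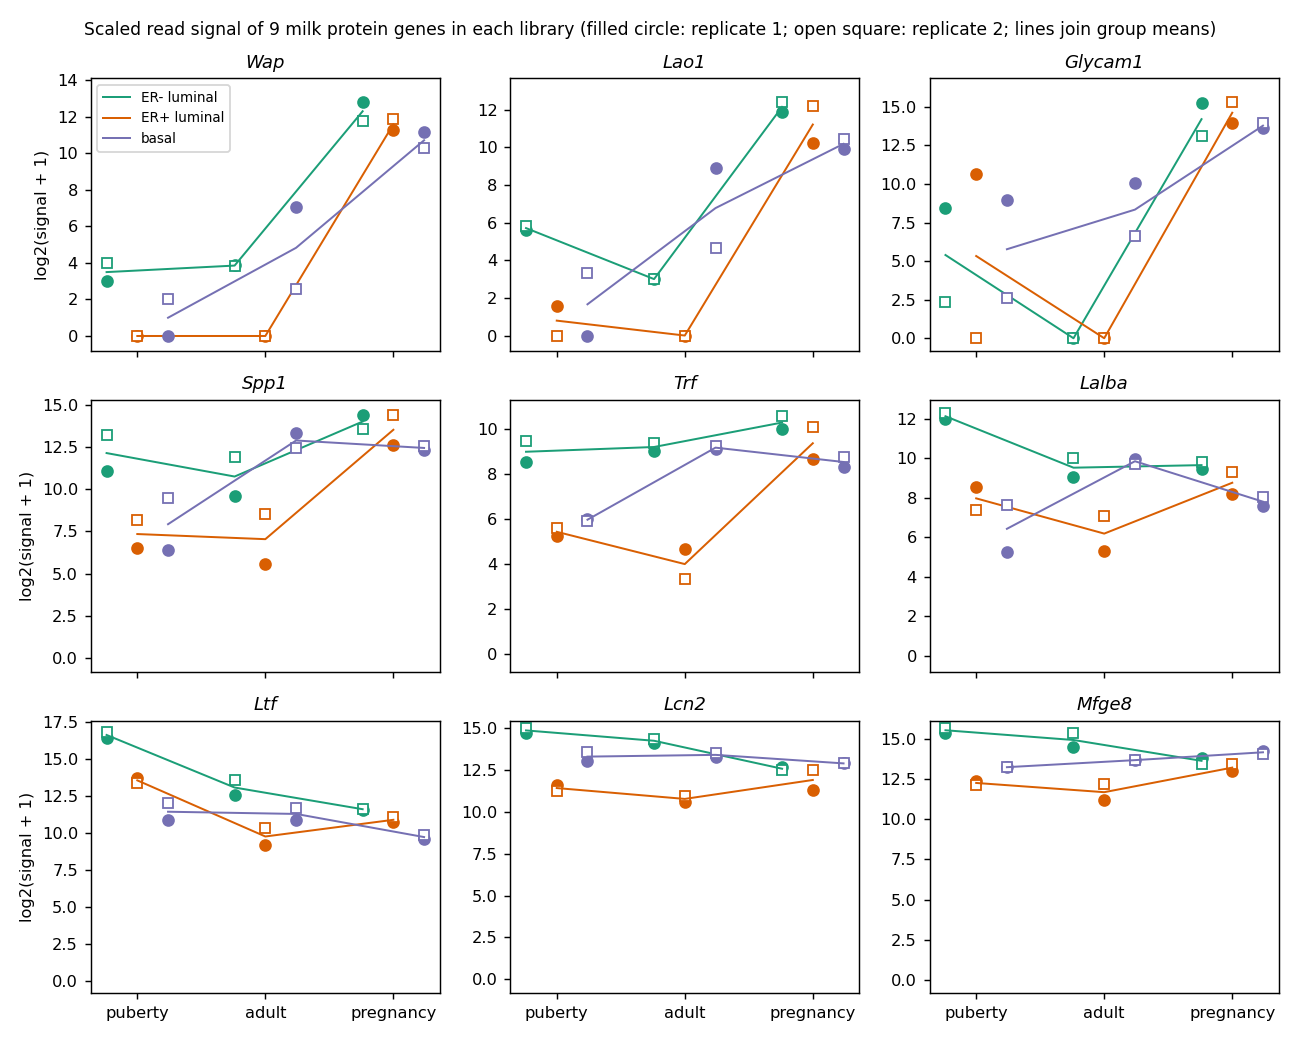
Signal of the 9 genes in each of the 18 libraries, as log2(signal + 1), by stage on the x axis; circles are replicate 1, squares replicate 2, colours the sorted population, and lines join the group means. Wap, Lao1 and Glycam1 are highest in pregnancy in every population, while Ltf, Lcn2 and Mfge8 start high in ER- luminal cells at puberty and are lower there in pregnancy.

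Lalba, unlike Wap, was already high at puberty. The ER- luminal signal was 4047 and 4924 at puberty, 532 and 1015 in adults and 714 and 905 in pregnancy. ER+ luminal cells had 376 and 166, then 39 and 132, then 294 and 637. Basal cells had 37 and 195, then 1000 and 849, then 191 and 259. The puberty ER- libraries lay above the other 16. Lalba (chr15:98480400-98482721, minus strand, 4 exon blocks) had a log2 fold change of -2.47 ± 0.77 from puberty to pregnancy in ER- luminal cells, with an adjusted p of 0.053 that did not pass. Adjusted p was 0.0115 by edgeR and 0.000308 by DESeq2 on the recovered reads. Lalba rose from adult to pregnancy in ER+ luminal cells, by 2.57 ± 0.77 (adjusted p = 0.0398, ratio of means 5.44). This call was lost without adult ER+ replicate 1 (0.218), pregnancy ER+ replicate 1 (0.0559) or pregnancy ER+ replicate 2 (0.234), and by edgeR (0.0605).

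Trf, the serum-type transferrin, rose over puberty in ER+ luminal and basal cells, and over adults in ER+ luminal cells only. ER- luminal cells had a signal of 363 and 692 at puberty, 512 and 658 in adults and 1006 and 1514 in pregnancy. ER+ luminal cells had 37 and 47, then 24 and 9, then 397 and 1069. In the basal libraries it was 63 and 59, then 548 and 591, then 310 and 431. The pregnancy libraries did not overlap those of earlier stages in either luminal population. Trf (chr9:103204001-103230444, minus strand, 19 exon blocks) rose in ER+ luminal cells by 5.37 ± 0.47 over adults (adjusted p = 3.57e-06, ratio of means 44.4) and by 3.93 ± 0.47 over puberty (adjusted p = 7.84e-05, ratio 17.5). Adult ER+ cells held 4 reads of Trf in all, so the ratio of 44.4 is loosely set. The difference in ER- luminal cells was 1.09 ± 0.47 over adults and 1.30 ± 0.47 over puberty, and neither passed (adjusted p = 0.137 and 0.0793). From adults to pregnancy the basal log2 fold change was -0.64 ± 0.47, which did not pass (adjusted p = 0.429). In basal cells Trf rose over puberty by 2.56 ± 0.47 (adjusted p = 0.0107, ratio 6.07), a call that was lost with any 1 of the 4 libraries left out (adjusted p = 0.0618 to 0.134). Gm20425 overlaps Trf on the same strand, so the Trf values may hold some of its reads.

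Ltf had the largest fall of the 9 genes. Its signal in ER- luminal cells was 87023 and 113955 at puberty, 6040 and 12029 in adults and 3028 and 3154 in pregnancy. ER+ luminal cells had 13372 and 10619, then 567 and 1312, then 1666 and 2128. The basal signal was 1855 and 4070, then 1867 and 3291, then 771 and 914. The stages of the ER- luminal cells did not overlap, whereas ER+ luminal cells were lowest in adults. Ltf (chr9:111019271-111042767, plus strand, 18 exon blocks) fell from puberty to pregnancy in ER- luminal cells, with a log2 fold change of -5.01 ± 0.48 (adjusted p = 0.000127), where puberty was 32.5-fold higher. It also fell in ER+ luminal cells, with -2.66 ± 0.48 (adjusted p = 0.00373), where puberty was 6.32-fold higher. From puberty to adulthood the change of Ltf was -3.55 ± 0.48 in ER- (adjusted p = 0.00226) and -3.79 ± 0.48 in ER+ luminal cells (adjusted p = 0.000885). Both of these adult calls were lost when only the compared groups were fitted (adjusted p = 0.0899 and 0.162). From adult to pregnancy the ER- log2 fold change of -1.46 ± 0.48 did not pass (adjusted p = 0.065), but it passed without adult ER- replicate 1 (0.0424), by edgeR (0.0442) and by DESeq2 (0.00325).

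Lcn2 fell in pregnancy in ER- luminal cells and rose over adults in ER+ luminal cells. Its signal in ER- luminal cells was 26514 and 32001 at puberty, 17450 and 20706 in adults and 6363 and 5644 in pregnancy. The ER+ luminal signal was 3065 and 2375, then 1513 and 1963, then 2526 and 5619. Basal cells had 8151 and 11983, then 9692 and 11640, then 7453 and 7487. Pregnancy lay below both earlier stages in ER- luminal and in basal cells without overlap, and above adults in ER+ luminal cells. Lcn2 (chr2:32384633-32388252, minus strand, 5 exon blocks) fell in ER- luminal cells, with -2.28 ± 0.30 against puberty (adjusted p = 0.000448) and -1.67 ± 0.30 against adults (adjusted p = 0.00419). Puberty was 4.87-fold and adulthood 3.18-fold above pregnancy. Lcn2 rose over adult ER+ luminal cells by 1.13 ± 0.30 (adjusted p = 0.0204, ratio 2.34), and this was lost without adult ER+ replicate 1 (0.118) or pregnancy ER+ replicate 2 (0.187). The ER+ difference from puberty did not pass (adjusted p = 0.36), and those libraries overlapped. No basal change of Lcn2 passed, with an adjusted p of 0.316 against adults and 0.659 against puberty.

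Neutrophils are another known source of Ltf and Lcn2, so 10 neutrophil markers were measured. They summed to 8 to 330 over all 18 libraries, and to 99 to 131 in the puberty ER- pair, where Ltf was 87023 and 113955. Ly6g was 0 in every library, and S100a8 and S100a9 were 48 and 51 and 17 and 18 in puberty ER- luminal cells. The part of neutrophils in the Ltf and Lcn2 values was not tested.

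Mfge8 moved with Lcn2 in the luminal cells. The ER- luminal signal was 42412 and 51723 at puberty, 23175 and 40916 in adults and 14414 and 10964 in pregnancy. The ER+ luminal signal was 5226 and 4488, then 2327 and 4553, then 8008 and 10982. The basal signal was 9504 and 9608, then 12834 and 13050, then 19169 and 17172. It was thus lowest in pregnancy in ER- luminal cells and highest in pregnancy in ER+ luminal and basal cells, with no overlap with earlier stages. Mfge8 (chr7:79133768-79149060, minus strand, 11 exon blocks) fell in ER- luminal cells, with -1.90 ± 0.30 against puberty (adjusted p = 0.0016, puberty 3.71-fold higher) and -1.29 ± 0.30 against adults (adjusted p = 0.0152). The fall from adults was lost without adult ER- replicate 2 (0.132) or pregnancy ER- replicate 2 (0.123). It rose over adult ER+ luminal cells by 1.53 ± 0.30 (adjusted p = 0.00408, ratio 2.76), which was lost without pregnancy ER+ replicate 2 (0.0539). The ER+ and basal differences from puberty did not pass (adjusted p = 0.0559 and 0.163).

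Spp1 varied widely between replicates before pregnancy. ER- luminal cells had a signal of 2162 and 9437 at puberty, 764 and 3891 in adults and 21956 and 12354 in pregnancy. ER+ luminal cells had 92 and 285, then 47 and 363, then 6349 and 21706. In basal libraries it was 84 and 700, then 10237 and 5593, then 5065 and 6130. Pregnancy lay above both earlier stages in the luminal populations, while adult and pregnancy basal cells overlapped. Spp1 (chr5:104435118-104441050, plus strand, 8 exon blocks) rose in ER+ luminal cells by 6.47 ± 1.35 over adults (adjusted p = 0.00957, ratio 68.4) and by 6.17 ± 1.35 over puberty (adjusted p = 0.0146, ratio 74.4). The adult call was lost without adult ER+ replicate 1 (0.0599) or pregnancy ER+ replicate 2 (0.0807). The puberty call was lost without puberty ER+ replicate 1 (0.0791) or pregnancy ER+ replicate 2 (0.115). The difference in ER- luminal cells was 3.25 ± 1.35 over adults and 1.87 ± 1.35 over puberty, and neither passed (adjusted p = 0.139 and 0.413). Gm42793 likewise overlaps Spp1 on the same strand.

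Counted over the 9 genes, pregnancy against adults showed 3 that were higher in ER- luminal cells and 2 that were lower, where 8.89% of all genes tested were called higher and 5.51% lower. Among ER+ luminal cells 8 were higher and none lower, against 12.8% and 5.05% of all genes, and Ltf was the gene that did not pass. In basal cells Wap alone was higher and none was lower, against 2.92% and 4.34%. The median of the 9 genes was 1.09 in ER- luminal, 5.37 in ER+ luminal and -0.44 in basal cells, where the medians of all genes were 0.09, 0.21 and -0.09. Against puberty, 2 were higher and 3 lower in pregnancy ER- luminal cells (8.78% and 6.04% of all genes). The ER+ luminal cells had 4 higher and 1 lower (7.34% and 5.73%), and the basal cells 3 higher and none lower (0.668% and 1.4%). Left out one at a time, single libraries moved the adult comparisons most: ER- to 3 without adult ER- replicate 2 or pregnancy ER- replicate 2, and ER+ to 4 without adult ER+ replicate 1 and 3 without pregnancy ER+ replicate 2. The basal count against adults became 3 without adult basal replicate 1 and 0 without pregnancy basal replicate 1, and that against puberty became 1 without pregnancy basal replicate 2. When limma was fitted to the compared groups alone, 0 of all 22315 genes, the 9 among them, were called in ER+ luminal cells against adults, while 5788 had an unadjusted p under 0.05. On the recovered reads edgeR called 2996 and DESeq2 3556 genes in that comparison.

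**Figure D2:**
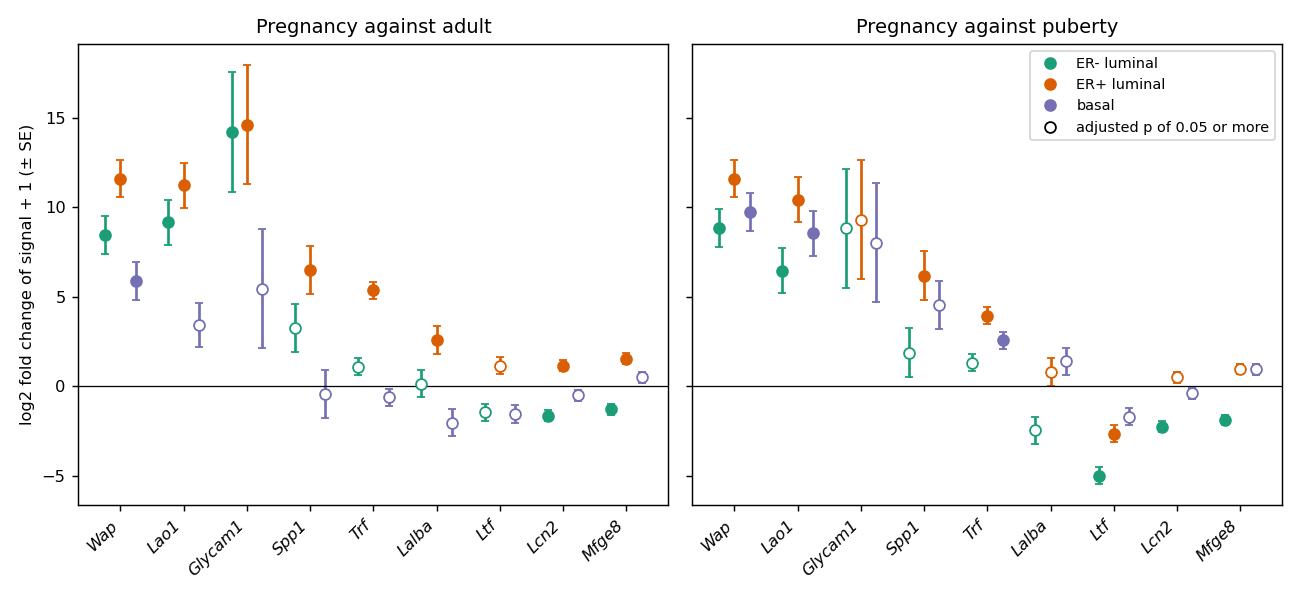
Log2 fold change of signal + 1 from adult (left) and from puberty (right) to pregnancy for each gene, with bars of 1 SE from limma; filled points have an adjusted p under 0.05, and colours are the sorted populations. Wap and Lao1 lie above 0 in every population, while Ltf, Lcn2 and Mfge8 lie below 0 in ER- luminal cells. Values of genes at 0 in the earlier stage, such as Glycam1 in adult luminal cells, depend on the 1 that was added.

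Before pregnancy the adult basal cells differed from puberty basal cells in 5 of the 9 genes. Lalba (3.42 ± 0.77, adjusted p = 0.0197), Lao1 (5.11 ± 1.25, 0.0247), Spp1 (4.95 ± 1.35, 0.0487), Trf (3.20 ± 0.47, 0.00121) and Wap (3.83 ± 1.06, 0.0351) were higher in adults, where 5.15% of all genes were called higher and 4.58% lower. Only the Trf call held with each of the 4 libraries left out. Without puberty basal replicate 1 or adult basal replicate 1 it was the 1 call left, and without adult basal replicate 2 there were 3. Adult basal replicate 1 carried more of the pregnancy-type genes than replicate 2, with 134 against 5 for Wap, 478 against 24 for Lao1 and 1045 against 99 for Glycam1. Beta-casein (Csn2) was 77881 against 6854 in the same pair, and the 7 markers of ER- luminal cells, none a milk gene, summed to 24363 and 13972. In puberty basal cells that sum was 6045 to 7693. The part of luminal cells in these values was not tested. Between puberty and adulthood Ltf was the 1 gene of the 9 called in luminal cells. It was lower in adults in the ER- population, where 2.42% of all genes were called lower and 1.24% higher, and in the ER+ population, where 4.5% were lower and 1.22% higher.

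Most of the 9 genes were higher in ER- than in ER+ luminal cells at puberty and in adults, and none was called different in pregnancy. At puberty 8 of the 9 genes were higher in ER- than in ER+ luminal cells, where 6.84% of all genes were called higher and 5.59% lower. In adults 6 of the 9 were higher (11.5% of all genes) and none lower (5.49%), and in pregnancy none was called in either direction by limma. Of all genes 0.211% were called higher and 1.64% lower at that stage, so that a count of 0 among 9 genes is near the background. Glycam1 was called at no stage, and Lao1 and Spp1 were not called in adults. On the recovered reads edgeR and DESeq2 also called none of the 9 in pregnancy, and 1 of them, Lcn2, had an unadjusted limma p under 0.05. In simulated data for pregnancy against puberty in ER- luminal cells, limma found 8 of 100 genes changed 2-fold. A 4-fold change was found there for 86 of 100. The simulation did not cover ER- against ER+ luminal cells in pregnancy, so it cannot give the power of that comparison. The SE of that comparison on the log2 scale was 0.30 for Mfge8 and Lcn2. It was 1.06 for Wap, 1.25 for Lao1, 1.35 for Spp1 and 3.33 for Glycam1, so differences above 2-fold could be missed in these genes. At puberty Ltf was 3.06 ± 0.48 higher on the log2 scale in ER- cells (adjusted p = 0.00147), Mfge8 3.27 ± 0.30 (2.02e-05), Lcn2 3.43 ± 0.30 (1.37e-05), Trf 3.56 ± 0.47 (0.000131) and Lalba 4.15 ± 0.77 (0.00414). Trf was 5.20 ± 0.47 higher in adults (adjusted p = 5.60e-06). In pregnancy Trf was 1006 and 1514 in ER- against 397 and 1069 in ER+ cells, and Lcn2 6363 and 5644 against 2526 and 5619.

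Several of these luminal calls rested on few reads or on 1 library. The adult call of Trf compared 180 reads in ER- with 4 in ER+ cells. Wap held 11 reads over the puberty ER- pair and none in ER+ cells, at least 3.34-fold, and in adults 4 reads against none, at least 1.13-fold. Both Wap calls were lost by edgeR (adjusted p = 0.342 and 0.611) and without any 1 of the compared libraries (0.0911 to 0.261 and 0.0918 to 0.0952). Lao1 held 54 reads against 1 at puberty (adjusted p = 0.0212), and the call was lost by edgeR (0.137) and without puberty ER- replicate 1 (0.089), ER- replicate 2 (0.121) or ER+ replicate 2 (0.204). The puberty call of Spp1 (adjusted p = 0.0466) was lost with any 1 of the 4 libraries left out (0.0693 to 0.289), and that of Lalba without puberty ER+ replicate 2 (0.0522). In adults the Lalba call (3.33 ± 0.77, 0.0131) was lost without ER- replicate 2 (0.0875) or ER+ replicate 1 (0.0934). The puberty count was thus 5 without ER- replicate 1 or ER- replicate 2 and 4 without ER+ replicate 2. In pregnancy, leaving out ER+ replicate 2 gave 1 call.

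**Figure D3:**
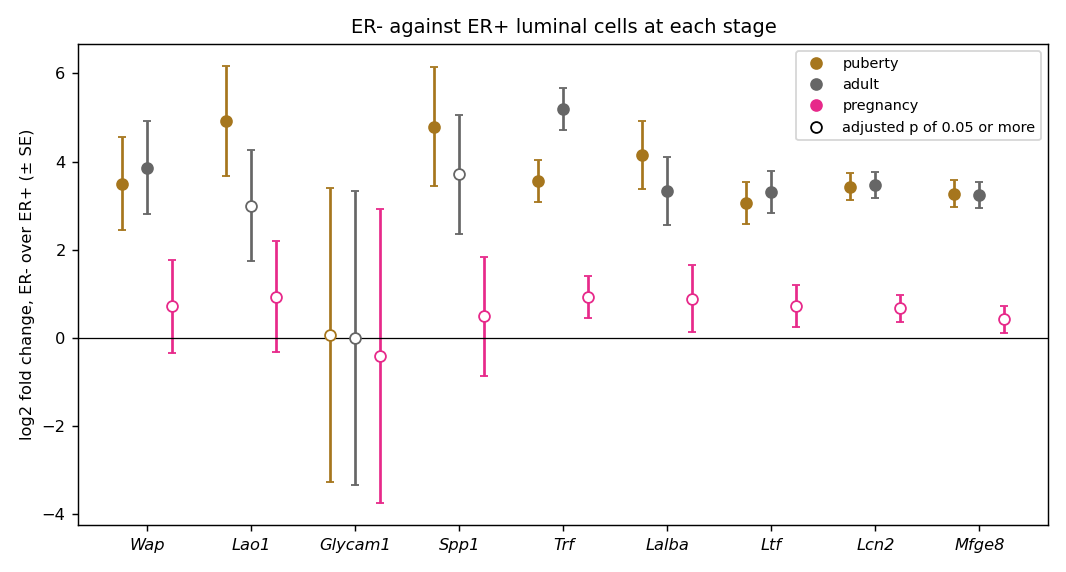
Log2 fold change of signal + 1 in ER- over ER+ luminal cells at puberty, in adults and in pregnancy for each gene, with bars of 1 SE from limma; filled points have an adjusted p under 0.05. Apart from Glycam1, the values lie no lower than 3 at puberty and in adults and below 1 in pregnancy.

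Whether the pregnancy effect differed between the luminal populations was tested as a difference of differences. Against adults it differed for 3 of the 9 genes, Trf, Mfge8 and Lcn2, where 1.85% of all genes had a lower effect in ER- than in ER+ luminal cells and 0.224% a higher one. The log2 effect in ER- minus that in ER+ luminal cells was -4.28 ± 0.67 for Trf (adjusted p = 0.00396), whose rise in ER+ cells was larger and set against 4 adult ER+ reads. It was -2.82 ± 0.43 for Mfge8 (0.00509) and -2.79 ± 0.43 for Lcn2 (0.00501), which fell in ER- and rose in ER+ luminal cells. Against puberty the difference passed for Mfge8 (-2.85 ± 0.43, 0.00455) and Lcn2 (-2.76 ± 0.43, 0.00503), where 1.47% of all genes had a lower and 0.847% a higher effect. These 5 calls held with each single library left out, with adjusted p of at most 0.0327. For the other genes the difference against puberty did not pass in limma. The adjusted p was 0.0536 for Trf, which passed by edgeR (0.018) and DESeq2 (0.000556), and 0.118 for Ltf, which passed by DESeq2 (0.00392) and with the compared groups alone (0.00209). It was 0.18 for Lalba, 0.448 for Wap, 0.343 for Lao1 and 0.362 for Spp1. Against basal cells the ER- minus basal difference of the effect over puberty was -2.82 ± 0.43 for Mfge8 (adjusted p = 0.0126), 1 of the 9, where 0.43% of all genes were lower and 0.197% higher. That call was lost without puberty ER- replicate 2 (0.0828), puberty basal replicate 1 (0.06), pregnancy ER- replicate 2 (0.0684), pregnancy basal replicate 1 (0.0675) or pregnancy basal replicate 2 (0.0579), and without puberty basal replicate 2 the count became 3.

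The luminal populations were also closer together in pregnancy by the ER- luminal markers, while by the ER+ luminal markers they stayed apart. The 7 ER- luminal markers summed to 80166 and 90523 in ER- against 10242 and 6843 in ER+ luminal cells at puberty, and to 49378 and 52608 against 19173 and 42390 in pregnancy. The 10 ER+ luminal markers summed to 92171 and 38215 in pregnancy ER+ cells, against 175744 and 222436 at puberty and 187175 and 211109 in adults. In ER- luminal cells that sum was 7029 and 8051 in pregnancy, 21978 and 20178 at puberty and 35150 and 46503 in adults. Pregnancy ER+ replicate 2 was thus the nearer of the pair to ER- cells by both lists, and it had the higher signal of every one of the 9 genes. The 8 basal markers summed to 34886 and 32306 in ER- and to 29327 and 23781 in ER+ luminal cells of pregnancy, against 849 to 11844 in luminal cells of the earlier stages. The 6 fibroblast markers summed to 80869 and 39273 in pregnancy ER+ luminal cells against 8574 and 6807 in adult ones, and to 157481 and 144922 in pregnancy basal cells against 21511 and 15725 in adult ones. In ER- luminal cells they summed to 24458 and 21018 in pregnancy and 19040 and 23473 in adults. The 8 lymphocyte markers summed to 9 to 2829 over all 18 libraries. The part of mixed cells in these results was not tested.

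Basal cells were below ER- luminal cells in 6 of the 9 genes at puberty, where 8.99% of all genes were called lower and 8.82% higher. The log2 fold change was -5.69 ± 0.77 for Lalba (adjusted p = 0.000357), -5.18 ± 0.48 for Ltf (2.54e-05), -3.02 ± 0.47 for Trf (0.000328), -2.29 ± 0.30 for Mfge8 (0.000158) and -1.56 ± 0.30 for Lcn2 (0.00256). Lao1 was also called (adjusted p = 0.0413), but the call was lost in 11 of 13 alternatives, among them edgeR (0.163), DESeq2 (0.0592) and the fits without puberty ER- replicate 1 (0.13), ER- replicate 2 (0.179) or basal replicate 1 (0.336). In adults 2 were lower, Ltf at -1.78 ± 0.48 (0.0265) and Mfge8 at -1.25 ± 0.30 (0.0136), where 6.58% of all genes were lower and 10.8% higher. In pregnancy 2 were lower, Ltf at -1.88 ± 0.48 (0.0202) and Trf at -1.75 ± 0.47 (0.0188), where 10.3% were lower and 8.25% higher. The adult count became 0 without adult ER- replicate 2 or adult basal replicate 1, and the pregnancy count became 0 without pregnancy ER- replicate 2, pregnancy basal replicate 1 or pregnancy basal replicate 2. In pregnancy the basal libraries thus still held 2289 and 1242 of Wap and 12751 and 15500 of Glycam1, with 15787 and 21390 for the 7 ER- luminal markers.

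The shares of all genes called higher or lower depend on how libraries are scaled, whereas no called gene of the 9 changed direction under any scaling tried. For pregnancy against adults, 1983 genes were higher and 1230 lower in ER- luminal cells, against 1598 and 1682 with median-ratio size factors. In ER+ luminal cells 2865 and 1126 became 1896 and 1907 with quantile normalization. For pregnancy against puberty in ER- luminal cells, 1960 and 1347 became 1503 and 1963 with median-ratio size factors, and the median of all genes moved from 0.03 to -0.11. For ER- against ER+ luminal cells in adults 2559 and 1224 became 1707 and 1651, and for adult against puberty ER+ luminal cells 273 and 1005 became 356 and 652, both with quantile normalization. For basal against ER- luminal cells, 2407 and 1468 in adults became 2289 and 2555 with quantile normalization, and 1841 and 2304 in pregnancy became 2361 and 1146 with median-ratio size factors.

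Levels can be compared between genes per kilobase of annotated exon, which sums the exons of all transcripts and so lowers the value of genes with long rare forms. By this mean level per kilobase Ltf stood highest in puberty ER- luminal cells at 29127, ahead of Lcn2 at 11154 and Mfge8 at 10027. In adult ER- luminal cells Lcn2 was highest at 7273 and Mfge8 next at 6827. In pregnancy ER- luminal cells Glycam1 led at 11346, then Spp1 at 10410 and Wap at 5366. Pregnancy ER+ luminal cells had the same order, 13158, 8512 and 3142. In pregnancy basal cells Glycam1 (6622) was followed by Mfge8 (3871) and Spp1 (3397). Glycam1 and Spp1 did not differ beyond their spread in pregnancy ER- luminal cells, where Glycam1 signal was 39408 and 8993 and Spp1 21956 and 12354.

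**Figure D4:**
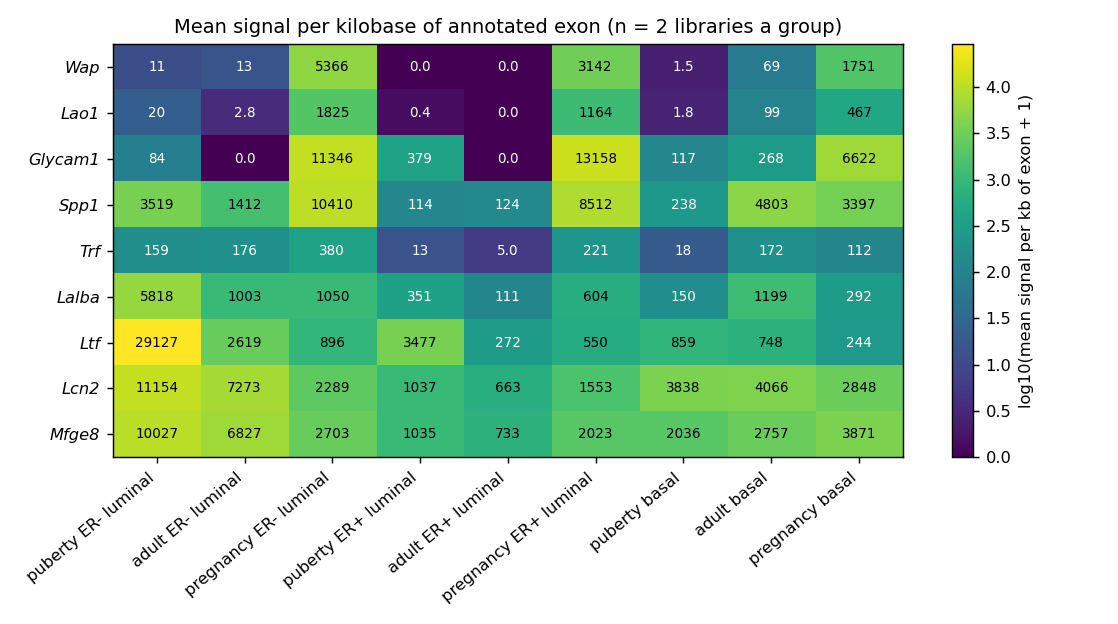
Mean signal per kilobase of annotated exon for each gene (rows) in each group (columns, mean of 2 libraries), with the colour on a log10 scale. The highest cell moves from Ltf in puberty ER- luminal cells to Lcn2 in adult ER- luminal cells and Glycam1 in pregnancy.

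Over the 18 libraries the genes fell along a range from Wap to Ltf. Pearson's r of log2(signal + 1) was 0.97 for Wap and Lao1, 0.82 for Glycam1 and Lao1, 0.88 for Lao1 and Spp1 and 0.88 for Spp1 and Trf. It was 0.93 for Lcn2 and Mfge8, 0.76 for Lalba and Mfge8 and 0.73 for Lalba and Ltf. Trf lay between, with 0.70 to Mfge8 and 0.69 to Lalba against 0.50 to Glycam1. Wap and Ltf had an r of -0.29 and Glycam1 and Ltf of -0.28. The libraries share 9 groups and a common scaling, so these values describe the pattern and carry no test.

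**Figure D5:**
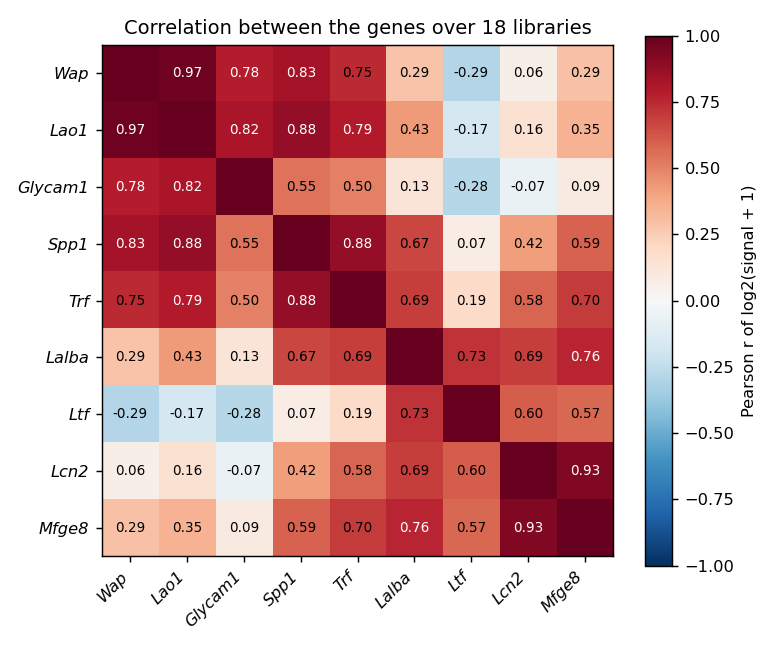
Pearson's r of log2(signal + 1) between each pair of genes over the 18 libraries, on a colour scale from -1 to 1. Wap, Lao1, Glycam1, Spp1 and Trf have r between 0.50 and 0.97 with each other, and Lalba, Ltf, Lcn2 and Mfge8 between 0.57 and 0.93. Values between these sets reach from -0.29 to 0.70 and so overlap those within them.

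Among 11100 tested genes outside the 9, with a mean signal of at least 100, those most like 8 of the 9 genes over the 18 libraries were found by the same r. Wap was most like Olah (0.95), the thioesterase that releases medium-chain fatty acids, then Rgs8 (0.94) and Plin2 (0.94), a lipid droplet coat protein. Of these genes Olah (0.94) and Plin2 (0.94) were also the most like Lao1. Glycam1 was most like Rgs16 (0.89) and Fabp3 (0.89), a fatty acid binding protein, and Spp1 most like Car2 (0.91), Lipa (0.89) and Btn1a1 (0.89), the butyrophilin of milk fat globules. Ltf was most like Ifi44 (0.93), Phf11d (0.92) and Slfn8 (0.92), which are known as interferon-response genes. Lalba came closest to Slc1a1 (0.94), Trf to Ptges (0.96) and Mfge8 to Flrt3 (0.97).

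Other genes of milk secretion were counted from pregnancy against puberty in ER- luminal cells, where 8.78% of all genes tested were higher and 6.04% lower. Of 5 caseins 3 rose and none fell, with a median of 7.62 against 0.03 for all genes. Csn2 rose by 9.95 ± 1.83 (adjusted p = 0.00738), and its signal was 82 and 65 at puberty and 253329 and 21279 in pregnancy. Of 8 further fat globule proteins 2 rose, Fabp3 by 8.40 ± 1.03 (0.000224) and Plin2 by 2.14 ± 0.58 (0.0333), and none fell (median 1.13). Of 17 other secreted defence and whey proteins 2 rose and 3 fell (median 0.90). Lactoperoxidase, Lpo, rose by 5.60 ± 1.08 (0.00327) from 3 and 2 to 138 and 203, and lysozyme, Lyz2, by 2.84 ± 0.60 (0.00908). Lyz2 is also among the 10 macrophage markers, which summed to 1317 to 1549 at puberty and 7668 to 9229 in pregnancy. Apod, a lipocalin like Lcn2, fell by 7.07 ± 0.28 (1.28e-09) from 16508 and 11647 to 98 and 106.

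The WAP-domain relatives of Wap held calls in both directions from puberty to pregnancy in ER- luminal cells. Of 11 tested, 1 rose and 3 fell, where 8.78% of all genes were called higher and 6.04% lower. The 1 rise is near the share of all genes. Their median was 1.49, or 1.08 with genes at 0 in a group set to their bound. Wfdc2, a protease inhibitor-like protein, fell by 3.81 ± 0.85 (adjusted p = 0.0138) from 582 and 595 to 44 and 38. Wfdc21 and Wfdc1 also fell, from 103 and 29 to 4 and 0 and from 31 and 8 to 0 and 0, while Wfdc5 rose from 0 and 0 to 7 and 23. One read was worth 3.36 and 3.75 of signal in those pregnancy libraries, so the Wfdc5 call rested on few reads. Wfdc1 was low at both stages. Wfdc2 was 6074 and 10335 in puberty ER+ luminal cells, and the part of such cells in its fall was not tested. Of 11 receptors and partners 2 rose and 4 fell (median -0.31). B4galt1, the enzyme that Lalba modifies, rose by 1.93 ± 0.24 (0.000168) from 2738 and 2714 to 9266 and 11599. Tfrc, the transferrin receptor, rose by 1.96 ± 0.28 (0.000588), and the Spp1 receptors Cd44 and Itgb3 fell, with -2.74 ± 0.24 (9.40e-06) and -2.09 ± 0.33 (0.000938). Of 10 lactogenic regulators Stat5a rose by 1.62 ± 0.26 (0.00103) and Ghr, the growth hormone receptor, fell by 0.70 ± 0.21 (0.0365), with a median of -0.21. The count of regulators in each direction was near the share of all genes. Among ER+ luminal cells, pregnancy against adults, all 5 caseins, 7 of 8 fat globule proteins and 8 of 17 defence proteins rose and none of these lists held a fall, where 12.8% of all genes were called higher.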

How the data were processed

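RNA of sorted cells was sequenced in 18 libraries, 2 for each of 9 groups that follow the sample titles. The signal that the authors deposited is a whole number for each gene in each library, and is read here as read counts scaled to a total of 20000000 and rounded up. Per the submitters' processing notes, STAR, Picard and HTSeq were used with GRCm38. Versions, settings, annotation and use of strand: not given in the sources used here. Reads were recovered by inverting the rounding, which returned 99.8% to 100.0% of values above 0 exactly, where chance gives 12.1% to 57%. A stricter test without that rounding was met by 3 libraries, so depths, bounds and count tests of the other 15 rest on the inferred rounding. Bounds use a floor of 3 reads over a group and cover counting error only, since reads are not independent molecules. The table has 46868 rows. Repeats of 179 gene IDs, on 790 rows, were reduced to the row with the highest mean, which left 46257 IDs.

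limma 3.58.1 (R 4.3.3, trend and robust) was fitted on log2(signal + 1) with a mean for each group, which leaves 9 residual degrees of freedom, over 22315 genes. P-values are 2-sided, were adjusted by the Benjamini-Hochberg method and call a gene under 0.05. Fold changes understate the change of low genes and depend on the 1 added where a group is at 0. Alternatives were a pseudocount of 5, no filter, median-ratio and quantile scaling, edgeR 4.0.16 and DESeq2 1.42.0 on recovered reads, a replicate block, the compared groups alone and each library left out. The fit without the 4 adult luminal libraries was chosen after seeing the data. The genes, lists and tests were chosen with earlier results of these data known. Named were all 9 genes, at most 4 called genes of each list with the largest change from puberty to pregnancy in ER- luminal cells, and up to 3 genes most like each member, leaving out predicted genes and pseudogenes. The genes most like Lcn2 are not reported here. Markers of 10 cell types were summed. Positions are from GENCODE vM21 on GRCm38, counted from 1, and promoters from RefSeq. The tests were tried on simulated data. Plots used Python 3.11.15 and matplotlib 3.10.9.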

Additional observations from a re-analysis of the deposited data

Results flagged for a closer look

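In 6 cases the effect of pregnancy on 1 gene differed between 2 sorted populations by a test of the difference itself (limma, Benjamini-Hochberg adjusted over 22315 genes). Against adults, the effect in ER- minus that in ER+ luminal cells was -4.28 for Trf (adjusted p = 0.00396), -2.82 for Mfge8 (adjusted p = 0.00509) and -2.79 for Lcn2 (adjusted p = 0.00501) on the log2 scale. Trf held 4 reads over the adult ER+ pair. Against puberty the same difference was -2.85 for Mfge8 (adjusted p = 0.00455) and -2.76 for Lcn2 (adjusted p = 0.00503). The effect on Mfge8 against puberty in ER- luminal minus that in basal cells was -2.82 (adjusted p = 0.0126), and it did not pass in 5 of the 8 fits that left out 1 library. Mfge8 was 14414 and 10964 in pregnancy ER- luminal cells, below both earlier stages, and 8008 and 10982 in pregnancy ER+ luminal cells, above them.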

How the results depend on the processing

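Of 1075 values of 81 results on single genes, 64 of them called, none changed direction under an alternative. The calls lost with the compared groups alone were 25, which leaves 2 residual degrees of freedom where 2 groups are compared, and 73 of the 376 values with 1 library left out fell below the threshold. Counts of called genes that moved by more than 1.5 times were as follows. With the compared groups alone, 8 became 0 for pregnancy against adult ER+ luminal cells, 6 became 0 for ER- against ER+ luminal cells in adults, and the 1 call in adult against puberty ER+ luminal cells became 0, but in these 3 comparisons limma then called 0 of all 22315 genes, where 5788, 5285 and 3488 had an unadjusted p under 0.05. In the same fit the 1 call in adult against puberty ER- luminal cells became 0, with 16 of all genes called in place of 817, and 5 became 1 for adult against puberty basal cells, with 600 in place of 2172. For pregnancy against adult basal cells 1 became 2, without Wap (adjusted p = 0.107), and 3 became 5 against puberty, with 850 and 1509 of all genes in place of 1620 and 461. For basal against ER- luminal cells 2 became 1 in adults, neither Ltf (0.101) nor Mfge8 (0.0907), and 7 in pregnancy, with 1069 and 5205 of all genes in place of 3875 and 4145. DESeq2 gave 3 for pregnancy against adult and 5 for pregnancy against puberty basal cells, with 3006 and 1321 of all genes, 3 and 2 for adult against puberty ER- and ER+ luminal cells (1315 and 1245), and 4 for basal against adult ER- luminal cells (3663). edgeR gave 2 for adult against puberty ER- luminal cells. Without the 4 adult luminal libraries, pregnancy against adult basal cells gave 2, against puberty basal cells 5, and adult against puberty basal cells 3.

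For the difference of effects over puberty between ER- and ER+ luminal cells, DESeq2 gave 5 and the fit without adult luminal libraries 4, in place of 2. For that between ER- luminal and basal cells, DESeq2 gave 4, edgeR 2, quantile normalization 2, the compared groups alone 3 and the fit without adult luminal libraries 2, in place of 1. The cause was not tested.

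Replicate numbers were not used to pair the samples in the main model. Deviations of same-numbered libraries correlated over 0.1 in 1 of 36 pairs of groups. That was 1 of the 9 pairs of the same stage, puberty ER- with puberty ER+ luminal cells (r = 0.27). Over those 9 pairs r ran from 0.0159 to 0.269, against a lowest of -0.0884 over all 36. Whether same-numbered libraries of a stage shared animals or a preparation was not tested. The replicate block fitted 1 shift of replicate 2 shared by all 9 groups, so it cannot describe pairing that differs between stages. It gave 2 for pregnancy against adult basal cells, 4 for the ER- minus ER+ and 3 for the ER- minus basal difference over puberty. No other count moved by over 1.5 times with the block. Among single genes it lost the call of Lao1 for basal against puberty ER- luminal cells (0.0553) and gained those of Ltf (0.0115) over adults and Lalba (0.0273) over puberty in ER- luminal cells, and of Trf (0.0426) and Ltf (0.0186) for the ER- minus ER+ difference over puberty.

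With 1 library left out, counts ranged as follows. Pregnancy against adults gave 3 to 5 in ER- luminal, 3 to 7 in ER+ luminal and 0 to 3 in basal cells. Pregnancy against puberty gave 5, 4 to 6 and 1 to 2 in that order. Adult against puberty gave 1, 1 to 2 and 1 to 5. ER- against ER+ luminal cells gave 4 to 6 at puberty, 4 to 5 in adults and 0 to 1 in pregnancy. Basal against ER- luminal cells gave 5 to 7, 0 to 3 and 0 to 2. The differences of effects gave 3 to 4, 2 to 3 and 0 to 3. Depth limits Wap and Lao1 before pregnancy, and Trf in adult ER+ luminal cells, where 1 read is worth up to 8.25 of signal.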
